A study of Homo sapiens with 6 samples.

Results

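The genes described here are 10 immediate early transcription factors, chosen by name: the FOS family (FOS, FOSB, FOSL1 and FOSL2), the JUN family (JUN, JUNB and JUND), the zinc finger factors EGR1 and EGR3, and MYC. Each was listed once among the 38648 genes and gene copies of the deposited tables. The tables came from bulk RNA-seq of the immortalized human kidney line HK-2, which derives from the proximal tubule. The cells carried either a negative control lentivirus (IR+NC-LV, 3 libraries) or a lentivirus overexpressing PRDM16 (IR+PR-LV, 3 libraries), and cells that had not taken up virus were removed with puromycin. Both groups received an X-ray dose of 8 Gy and were collected on day 7. No unirradiated library was part of the comparison, so that the levels below are those of irradiated cells. The sources do not say whether the libraries of a group came from separate cultures, and the tests therefore measure the spread between these libraries only.

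Immediate early genes are transcribed soon after a cell meets serum, a growth factor or stress, without the need for new protein. FOS and JUN proteins join through their leucine zippers into the dimer AP-1. FOS proteins need a JUN partner, whereas JUN proteins can also pair with each other. EGR1 and EGR3 bind GC-rich sites in promoters, and MYC binds DNA as a dimer with MAX. In the kidney tubule, FOS, JUN and EGR1 are known for their rapid induction after injury.

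The promoters of EGR1, FOS and JUN, the 3 genes that were lower in every IR+PR-LV library, are shown first. Signalling pathways act in part on short sequence elements close to the start of a gene. A part of these elements in the differences between the groups was not tested. RefSeq promoters (GRCh38.p14) were at hand for 7 of the 10 genes, and the 250 bases before the start were searched on both strands. Capitals mark the CArG box, bound by serum response factor (SRF), and TGACG, the core of the cyclic AMP response element.
EGR1: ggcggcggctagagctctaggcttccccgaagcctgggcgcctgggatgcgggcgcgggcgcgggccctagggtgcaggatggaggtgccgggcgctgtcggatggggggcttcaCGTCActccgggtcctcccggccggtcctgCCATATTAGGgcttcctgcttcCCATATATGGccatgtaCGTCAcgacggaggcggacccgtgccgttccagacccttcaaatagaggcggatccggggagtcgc
FOS: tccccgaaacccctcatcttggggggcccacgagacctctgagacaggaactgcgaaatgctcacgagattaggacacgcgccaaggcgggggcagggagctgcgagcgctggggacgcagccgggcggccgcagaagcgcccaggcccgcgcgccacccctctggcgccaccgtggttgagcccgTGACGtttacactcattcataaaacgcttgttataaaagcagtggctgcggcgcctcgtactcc
JUN: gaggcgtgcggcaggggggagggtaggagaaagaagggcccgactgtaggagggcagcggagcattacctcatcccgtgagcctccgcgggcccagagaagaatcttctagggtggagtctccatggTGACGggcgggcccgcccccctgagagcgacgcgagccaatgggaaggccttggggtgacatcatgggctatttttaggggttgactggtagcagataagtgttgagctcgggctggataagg
The EGR1 window is chr5:138465229-138465478 on the plus strand, that of FOS chr14:75278578-75278827 on the plus strand, and that of JUN chr1:58784048-58784297 on the minus strand.

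The EGR1 window held 2 CArG boxes, from base -105 to -96 and from -83 to -74 relative to the start. Of all 35116 promoters in the table, 1.16% held a CArG box in this window, and EGR1 was the only one of the 7 genes that did. Only exact matches within these 250 bases were searched, so CArG boxes farther upstream or with other bases would be missed. TGACG was found before all 7 genes (EGR1, FOS, FOSB, FOSL2, JUN, JUNB and JUND) and in 21.2% of all promoters. In the FOS promoter it lay from -64 to -60 and in the FOSB promoter from -60 to -56. JUND held the full palindrome TGACGTCA, which contains TGACG on both strands and occurred in 1.65% of all promoters. The consensus AP-1 site TGAGTCA and the E-box CACGTG, bound by MYC and MAX, were found in none of the 7 windows. Of all promoters, 4.203% and 6.34% held them. Variants of these sequences were not searched, so AP-1 sites of another sequence may lie in the windows.

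Of the 10 genes, all but FOSL2 were compact. The median tested gene spanned 28203 bases in 9 separate exons, whereas JUN, JUNB and JUND each had 1 exon and spanned 3257, 1830 and 1929 bases. FOS spanned 3403 bases, EGR1 3825, EGR3 5822, FOSB 7184, MYC 7518 and FOSL1 8497. FOSL2 was the longest, at 24463 bases, and 46.0% of the tested genes were no longer than it. The lower end held JUNB, with 1.98% of tested genes no longer.

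Many immediate early transcripts carry AU-rich elements in the 3′ untranslated region (UTR), which shorten the life of the RNA. In 1 GENCODE 29 transcript per gene, the pentamer ATTTA occurred at least once in the 3′ UTR of all 10 genes, and in 62.8% of protein-coding genes. Its density was highest in MYC (8.40 per kilobase), FOS (6.20) and JUNB (4.0), against 2.25 per kilobase over all protein-coding genes. JUN lay just above this background, whereas most of the 10 genes, namely FOSL2, FOSL1, JUND, FOSB, EGR3 and EGR1, lay below it. EGR1, with 1 pentamer in 1234 bases, had the lowest density, at 0.810 per kilobase. The longer element TTATTTATT was found in FOS and FOSL2 and in 7.18% of protein-coding genes. These 2 elements, both in the last part of the 3′ UTR, are shown in capitals.
FOS: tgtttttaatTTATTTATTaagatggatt
FOSL2: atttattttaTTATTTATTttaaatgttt
The FOS stretch is chr14:75282060-75282088 and that of FOSL2 chr2:28416355-28416383, both on the plus strand of GRCh38.

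The total count ranged from 13407074 to 28540041 per library. PRDM16 itself was counted 2, 0 and 1 times in IR+NC-LV against 14, 10 and 8 times in IR+PR-LV, the direction given by the labels, at a low level in both. Of 10 markers of the proximal tubule, AQP1 and GGT1 reached 1 TPM (a transcript level scaled by gene length and library) in every library, and defining transporters and receptors such as SLC34A1 and LRP2 did not. Of 8 general epithelial markers, 7 reached it. The 5 endothelial markers summed to at most 0.587 TPM. Fibroblast markers, of which COL1A1 and LUM reached 1 TPM, summed to between 131 and 136 TPM in IR+NC-LV against 106 to 151 in IR+PR-LV. LUM made up most of that sum, with a mean of 123 TPM over the 6 libraries, and COL1A1 had a mean of 10.5 TPM. Of 6 immune markers, CD68 and CD14 reached 1 TPM, and the summed level of the list, 191 to 206 TPM in IR+NC-LV, lay above that of 159 to 174 TPM in IR+PR-LV. CD68 made up most of this sum, with a mean of 177 TPM over the 6 libraries, and PTPRC, the common leukocyte antigen, had 10 counts in all 6. ITGAM, a myeloid integrin named after its values were seen, had 4.17 ± 2.33 CPM (counts scaled by library size) in IR+NC-LV against 0.670 ± 0.225 in IR+PR-LV (SD, n = 3 each). Its groups did not overlap, and its log2 fold change of -2.54 had an adjusted p of 0.0755 from edgeR and of 7.6e-06 from DESeq2. The part of these markers in the results was not tested. Since these are bulk samples, fewer cells expressing a gene and less RNA of it per cell cannot be told apart.

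Levels between genes were compared as deposited TPM. FOSL1, JUN, JUNB, MYC and FOSL2 were abundant, JUND was intermediate, FOSB, FOS and EGR1 were low, and EGR3 was close to the limit of detection. FOSL1 (chromosome 11, 65892049 to 65900545, minus strand) had 268, 269 and 244 TPM in IR+NC-LV against 291, 260 and 246 TPM in IR+PR-LV. JUN (chromosome 1, 58780791 to 58784047, minus strand) had 256, 238 and 267 TPM in IR+NC-LV against 230, 205 and 196 TPM in IR+PR-LV. FOSL1 stood above JUN in 5 of 6 libraries, with ranges that overlapped, and it ranked between 572 and 716 among all genes in a library. The classical FOS (chromosome 14, 75278828 to 75282230, plus strand) had 7.46, 6.92 and 9.18 TPM in IR+NC-LV against 6.09, 6.01 and 6.90 TPM in IR+PR-LV, and it ranked between 9578 and 10314.

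JUNB (chromosome 19, 12791486 to 12793315, plus strand) ranged from 149 to 210 TPM over the 6 libraries and MYC (chromosome 8, 127735434 to 127742951, plus strand) from 153 to 212 TPM. These 2 genes could not be put in order, since JUNB lay above MYC in 1 of 6 libraries. FOSL2 (chromosome 2, 28392855 to 28417317, plus strand) ranged from 116 to 127 TPM, below every value of MYC. JUND (chromosome 19, 18279694 to 18281622, minus strand) ranged from 42.6 to 69.3 TPM, below every value of FOSL2. FOSB (chromosome 19, 45467996 to 45475179, plus strand) followed at 7.57 to 11.1 TPM, and its range overlapped that of FOS. EGR1 (chromosome 5, 138465479 to 138469303, plus strand) ranged from 3.23 to 10.6 TPM and overlapped FOS in turn. EGR3 (chromosome 8, 22687659 to 22693480, minus strand) had 2, 5 and 3 counts in IR+NC-LV against 5, 4 and 4 in IR+PR-LV.

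**Figure D1:**
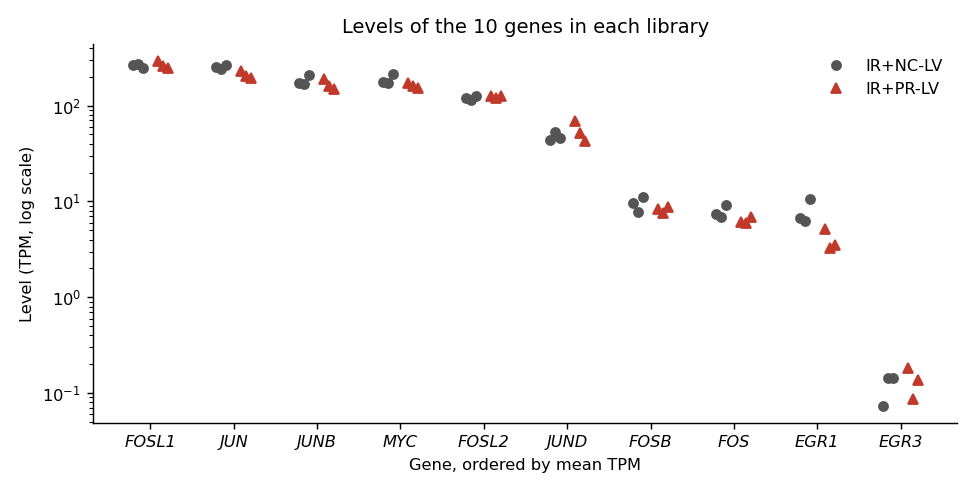
Level of each of the 10 genes in each library, in TPM on a log axis, with genes ordered by their mean; grey circles are the 3 IR+NC-LV libraries and red triangles the 3 IR+PR-LV libraries. FOSL1 stands highest at a mean of 263 TPM, FOSB, FOS and EGR1 form a low group under 12 TPM, and EGR3 lies under 0.2 TPM.

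Within the FOS family, FOSL1 and FOSL2 made up nearly all of the transcript. Together they held between 94.8% and 96.6% of the summed TPM of the family in a library. FOSL1 alone held 65.4% ± 2.64 (SD, n = 3) in IR+NC-LV against 65.8% ± 1.92 in IR+PR-LV, and FOSL2 held 30.3% ± 1.89 and 30.6% ± 1.58. FOS held 1.97% ± 0.326 in IR+NC-LV against 1.58% ± 0.190 in IR+PR-LV, with groups that overlapped (2-sided exact permutation test, p = 0.2, adjusted p = 0.467 over the 7 shares tested). The lengths behind TPM are those of all annotated exons of a gene, and FOSL2 has 8787 exon bases. On counts that were not divided by length, FOSL2 held the larger share, 66.4% ± 1.79 in IR+NC-LV, and FOSL1 30.3% ± 2.24. On the same counts FOS held 0.985%, 0.932% and 1.18% in IR+NC-LV against 0.761%, 0.803% and 0.908% in IR+PR-LV. These groups did not overlap (2-sided exact permutation test, p = 0.1, the smallest possible, adjusted p = 0.35), so that the overlap of the FOS shares depended on the scale.

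Within the JUN family, JUN held 54.0%, 52.0% and 51.0% of the summed TPM in IR+NC-LV against 47.2%, 49.3% and 50.5% in IR+PR-LV. Each IR+PR-LV library thus had a smaller JUN share than each IR+NC-LV library, by 3.37 percentage points on average (2-sided exact permutation test, p = 0.1, the smallest that 3 libraries against 3 allow, adjusted p = 0.467). JUND, often expressed in resting cells and regarded as the least inducible JUN protein, held 9.86% ± 1.41 (SD, n = 3) in IR+NC-LV against 12.5% ± 1.61 (SD, n = 3) in IR+PR-LV, with overlap. JUNB held 37.8% ± 2.05 and 38.5% ± 0.141 in the same order. With 3 libraries against 3 the exact permutation test cannot go under p = 0.1, so none of the 7 shares could pass a threshold of 0.05. The FOS family summed to 0.853, 0.873 and 0.749 times the JUN family in IR+NC-LV and to 0.883, 0.945 and 0.998 times in IR+PR-LV. These ratios, computed after the levels had been seen, were higher in each IR+PR-LV library. Which family was the larger depended on the scale, since the ratio lay below 1 in all 6 libraries on TPM and between 1.22 and 1.61 on counts not divided by length, where it was again higher in each IR+PR-LV library.

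**Figure D2:**
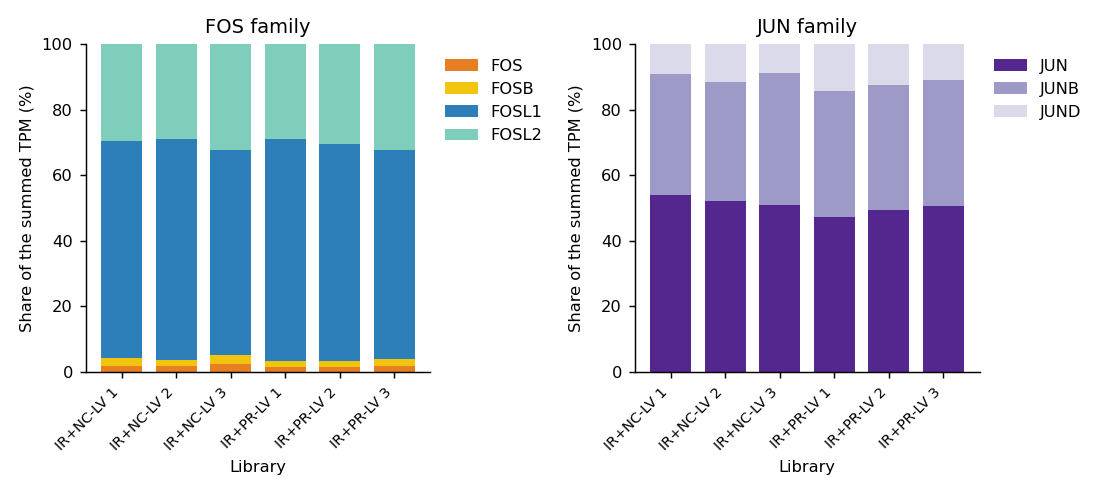
Share of each gene in the summed TPM of the FOS family (left) and of the JUN family (right), 1 bar per library, in percent. FOSL1 and FOSL2 fill at least 94.8% of each FOS family bar, and the JUN share lies between 51.0% and 54.0% in IR+NC-LV and between 47.2% and 50.5% in IR+PR-LV.

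Setting IR+PR-LV against IR+NC-LV asked how the overexpression of PRDM16 changed irradiated cells. Values of a gene across libraries are given as CPM, the count scaled by library size after TMM normalization. They were compared by the quasi-likelihood test of edgeR, and p-values were adjusted by Benjamini-Hochberg over the 15340 genes tested, the threshold being 0.05. A positive log2 fold change means a higher level in IR+PR-LV, and SE is its standard error. Of the 10 genes, 9 passed the filter on low counts, EGR3 being the exception, and 0 of the 9 passed the threshold with edgeR (1 with DESeq2), where 0.0652% of all tested genes did (0.0196% higher and 0.0456% lower). At an unadjusted p under 0.05 there were 2 of 9, EGR1 and JUN, both lower in IR+PR-LV, against 10.5% of all tested genes in either direction. The groups of libraries did not overlap for 4 of 9 genes, lower for EGR1, FOS and JUN and higher for FOSL2, against 17.0% of all tested genes. The median log2 fold change of the 9 was -0.15 (6 below 0), beside a median of 0.0044 over all tested genes, 48.9% of which were below 0. The genes, like the lists below, were chosen with earlier results of these data known, so their direction is not independent evidence.

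**Figure D3:**
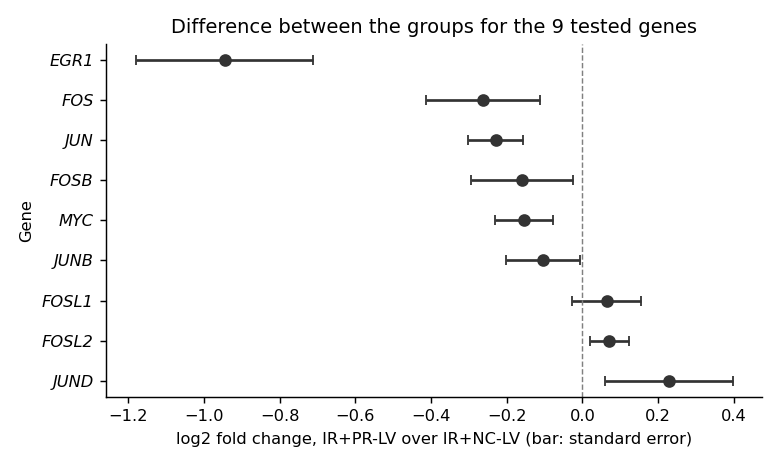
Log2 fold change of IR+PR-LV over IR+NC-LV for the 9 tested genes, with bars for the standard error; the dashed line marks no difference. EGR1 lies farthest from it at -0.94, and the other 8 genes lie between -0.26 and 0.23.

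EGR1, a zinc finger activator induced through SRF and the ERK kinases, showed the widest difference. It had 6.56, 6.17 and 9.57 CPM in IR+NC-LV against 5.06, 3.18 and 3.37 CPM in IR+PR-LV. Every IR+PR-LV library was below every IR+NC-LV library, with IR+NC-LV replicate 3 the highest and IR+PR-LV replicate 1 the highest of its group. The mean in IR+PR-LV, 3.87 ± 1.04 CPM, was 52.1% of that in IR+NC-LV, 7.43 ± 1.86 CPM (SD, n = 3 each). The log2 fold change was -0.94 (SE 0.23, edgeR adjusted p = 0.224), so that EGR1 did not pass the threshold.

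Whether EGR1 was called depended on the fit. DESeq2 gave a log2 fold change of -0.94 with an adjusted p of 0.0335, where 1.13% of genes passed. EdgeR without the filter on low counts gave an adjusted p of 0.00263, where 1.19% passed. Over the 6 edgeR fits that each left out 1 library, the log2 fold change was nearest to 0 without IR+NC-LV replicate 3, at -0.73, and farthest without IR+PR-LV replicate 1, at -1.17, and EGR1 passed in 0 of them (adjusted p from 0.123 to 0.688). The EGR1 counts were 110, 130 and 133 in IR+NC-LV against 85, 89 and 62 in IR+PR-LV. From these sums the rate in IR+PR-LV was 0.505 times that in IR+NC-LV, with an exact 95% interval of 0.427 to 0.596 that covers counting error only.

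EGR3, a close relative of EGR1, gave 10 counts in all in IR+NC-LV against 13 in IR+PR-LV. Its rate ratio was 1.04 with an exact 95% interval of 0.420 to 2.64, and a difference of this size was not detectable at this depth. Of its exon bases, 11.7% overlap an uncharacterized gene on the other strand, at most 1 count of which was found in a library.

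FOS, the founding AP-1 gene, had 4.83, 4.56 and 5.54 CPM in IR+NC-LV against 3.99, 3.97 and 4.46 CPM in IR+PR-LV. The groups did not overlap, but the nearest values, 4.56 and 4.46 CPM, lay close together. The log2 fold change was -0.26 (SE 0.15, edgeR adjusted p = 0.579). FOSB, its closest relative in the family, had 11.2, 9.12 and 12.02 CPM in IR+NC-LV against 9.89, 8.97 and 10.1 CPM in IR+PR-LV. These ranges overlapped, with a log2 fold change of -0.16 (SE 0.13, edgeR adjusted p = 0.719).

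FOSL1 and FOSL2, the FOS proteins without a strong activation domain, had log2 fold changes above 0 that did not pass the threshold. FOSL2 had 321, 318 and 320 CPM in IR+NC-LV against 343, 330 and 336 CPM in IR+PR-LV. The groups did not overlap, the IR+NC-LV values were the tightest of the 10 genes relative to their mean, and the difference was small, at log2 0.07 (SE 0.05, edgeR adjusted p = 0.682). Of the FOSL2 exon bases, 1.42% overlap FLJ31356 on the other strand, which had between 4 and 9 counts. FOSL1 had 153, 157 and 130 CPM in IR+NC-LV against 168, 151 and 140 CPM in IR+PR-LV. Its groups overlapped and its log2 fold change of 0.06 (SE 0.09, edgeR adjusted p = 0.840) changed sign when IR+NC-LV replicate 3 was left out, and when IR+PR-LV replicate 1 was.

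JUN, the principal activating partner of FOS and a substrate of the JNK kinases, had 256, 243 and 249 CPM in IR+NC-LV against 234, 210 and 195 CPM in IR+PR-LV. All 3 IR+PR-LV libraries were below all IR+NC-LV libraries, and the mean in IR+PR-LV was 85.3% of that in IR+NC-LV. The log2 fold change of -0.23 had a standard error of 0.07 and an adjusted p of 0.350 from edgeR, and it stayed between -0.30 and -0.17 with 1 library left out at a time. JUNB, which antagonizes JUN at many promoters, had 97.7, 95.8 and 110 CPM in IR+NC-LV against 107, 91.5 and 83.9 CPM in IR+PR-LV. These values overlapped (log2 fold change -0.10, SE 0.10, edgeR adjusted p = 0.752).

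JUND had 26.1, 31.7 and 25.6 CPM in IR+NC-LV against 41.6, 31.2 and 25.2 CPM in IR+PR-LV. IR+PR-LV replicate 1 stood above the other 5 libraries, and IR+PR-LV replicate 3 was the lowest of all 6. The log2 fold change of 0.23 (SE 0.17, edgeR adjusted p = 0.685) was 0.02 without IR+PR-LV replicate 1 and 0.38 without IR+PR-LV replicate 3. MYC, which drives ribosome synthesis and growth, had 243, 242 and 275 CPM in IR+NC-LV against 243, 228 and 212 CPM in IR+PR-LV. The groups overlapped narrowly, at 242 against 243 CPM, with a log2 fold change of -0.15 (SE 0.08, edgeR adjusted p = 0.511).

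**Figure D4:**
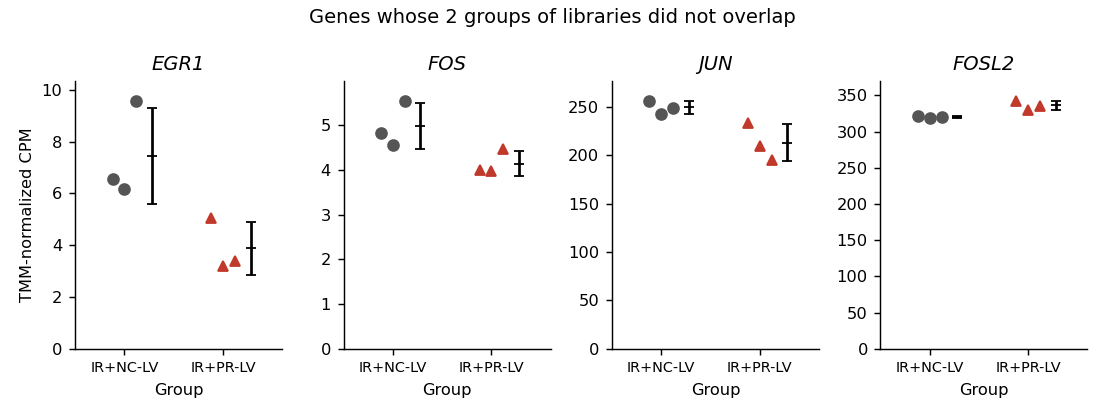
TMM-normalized CPM of EGR1, FOS, JUN and FOSL2 in each library, on axes that start at 0; grey circles are IR+NC-LV, red triangles IR+PR-LV, and the black bar beside each group is the mean ± SD of 3 libraries. EGR1 differs most in proportion, while FOSL2 differs by 336 against 320 CPM.

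The genes whose course over the 6 libraries was most like that of EGR1 were found from the root mean square difference between log2 CPM values, each centred on the gene's own mean, among 13967 genes with a mean of at least 1 CPM. The nearest were LOC107985946 (0.109), DBP (0.112), CD22 (0.114), PER1 (0.142) and TRIML2 (0.151), beside a spread of 0.543 for EGR1 itself. DBP and PER1 belong to the circadian clock and its outputs. Of the other 8 tested members, the nearest to EGR1 was FOS (0.422), which ranked 987, followed by JUN (0.423) at 1006. A gene that stayed level over the 6 libraries would lie 0.543 from EGR1, so these members shared little of its course. For FOS, whose own spread was 0.162, the nearest genes were EEA1 (0.0218), SIRT1 (0.0218), CYP20A1 (0.0238), LOC101928489 (0.0241) and INTS12 (0.0247), and FOSB ranked 502. These distances describe 6 libraries and carry no test.

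A list of 45 other immediate early genes was examined alongside, of which 44 were tested. ATF3, a stress-induced partner of JUN, was the only one past the threshold. It had 74.3, 62.3 and 98.5 CPM in IR+NC-LV against 30.7, 27.8 and 31.7 CPM in IR+PR-LV. All IR+PR-LV values were less than the lowest IR+NC-LV value, with a log2 fold change of -1.38 (SE 0.15, edgeR adjusted p = 0.0173). The call of ATF3 was lost when IR+NC-LV replicate 1 or any of the 3 IR+PR-LV replicates was left out, and kept when IR+NC-LV replicate 2 or 3 was (edgeR adjusted p from 0.00296 to 0.121). Its log2 fold change stayed between -1.53 and -1.18 in these fits.

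At an unadjusted p under 0.05, 13 of the 44 were lower and 2 higher in IR+PR-LV, where 5.97% and 4.55% of all tested genes were. The groups did not overlap for 14 that were lower, against 9.54% of all tested genes, and the median log2 fold change of the list was -0.07. After ATF3, the smallest p-values were those of KLF10 (log2 fold change -0.91), KLF4 (-0.52) and GADD45B (-0.58), named after their values were seen, with adjusted p between 0.0755 and 0.107 from edgeR. KLF10 and KLF4 are zinc finger factors, and GADD45B is a stress sensor upstream of p38. DUSP2 (0.64) and ID1 (0.17) were the 2 that lay higher. DESeq2 called 7 of the 44, all lower, namely ATF3, KLF4, KLF10, TIPARP, CSRNP1, PPP1R15A and GADD45B, where it called 1.13% of all genes tested in either direction. An earlier list of immediate early genes had been compared in these data, so that the direction of this list is not independent evidence.

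Of 13 other leucine zipper proteins that can pair with FOS or JUN, 10 were tested, and all 10 had negative log2 fold changes (median -0.11). ATF3 passed the threshold, where 0.0456% of all tested genes were called lower. At an unadjusted p under 0.05, 3 were lower, ATF3, MAFF (log2 fold change -0.30) and MAF (-0.19), beside 5.97% of all tested genes. ATF3 and MAFF also stand in the list of other immediate early genes. Since the leucine zipper list was chosen with earlier results of these data known, its direction is not independent evidence. Among the 30 tested kinases and factors upstream of these genes, such as ERK, JNK, p38 and SRF, edgeR called 0 and DESeq2 called 0. These fits called 0.0652% and 1.13% of all tested genes. At an unadjusted p under 0.05 there were 0 with edgeR, against 10.5% of all tested genes. The median of the 30 was 0.03, and the widest differences at a mean of at least 1 CPM were those of MAPK10 (0.28, SE 0.16) and MAPK12 (0.25, SE 0.15). In the EGR family and its corepressors, EGR2 had a log2 fold change of -0.19 (SE 0.21), NAB1 of -0.04 and NAB2 of 0.02, and EGR4 and WT1 were too low to test.

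Targets of AP-1 were split evenly in sign. Of 24 tested, including proteases, cytokines and EGF receptor ligands, 12 had positive and 12 negative values, with a median of -0.00064. EdgeR called 0, where 0.0652% of all tested genes passed. At an unadjusted p under 0.05 there was 1, against 10.5% of all tested genes. It was HMOX1, the heme-degrading enzyme, at -0.45 (SE 0.10, edgeR adjusted p = 0.210). DESeq2 called 0, where 1.13% of genes passed, and edgeR without the filter called HMOX1, where 1.19% passed. MMP10, a stromelysin with a mean of 1.498 ± 0.825 CPM in IR+NC-LV against 0.929 ± 0.331 in IR+PR-LV (SD, n = 3 each), had the largest value at -0.68 (SE 0.41).

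In the MYC network, which holds MAX and the MXD repressors, edgeR called 0 of 12 tested genes and DESeq2 called 0. These fits called 0.0652% and 1.13% of all tested genes. At an unadjusted p under 0.05 there were 0 with edgeR, against 10.5% of all tested genes. Among network genes with a mean of at least 1 CPM, the widest differences were those of MXD1, a repressor that competes with MYC for MAX (-0.29, SE 0.13), and MYCL (-0.20, SE 0.19). Most targets of MYC had positive values, 20 of 24 tested, with a median of 0.15. With edgeR 0 passed the threshold, where 0.0652% of all tested genes did. At an unadjusted p under 0.05, 9 were higher and 0 lower, where 4.55% and 5.97% of all tested genes were. HSPD1, a mitochondrial chaperone, had 945 ± 5.04 CPM in IR+NC-LV against 1092 ± 30.2 in IR+PR-LV (SD, n = 3 each). Its log2 fold change of 0.21 (SE 0.05) had an adjusted p of 0.233 from edgeR and of 0.0174 from DESeq2. DESeq2 called it alone of the 24, where 1.13% of all tested genes passed. The nucleolar proteins NPM1 and GNL3 had 0.20 and 0.23, with adjusted p of 0.340 and 0.264 from edgeR, and these and HSPD1 were named after their values were seen. LDHA (0.70) and FBL (-0.79) had the largest values, and both are uncertain, since each has a second listed copy and FBL ranged from 11.98 to 88.8 CPM within IR+NC-LV. With copies summed LDHA had a log2 fold change of 0.69 (adjusted p = 0.391 from edgeR). The median of the MYC targets stayed between 0.07 and 0.17 with 1 library left out at a time.

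**Figure D5:**
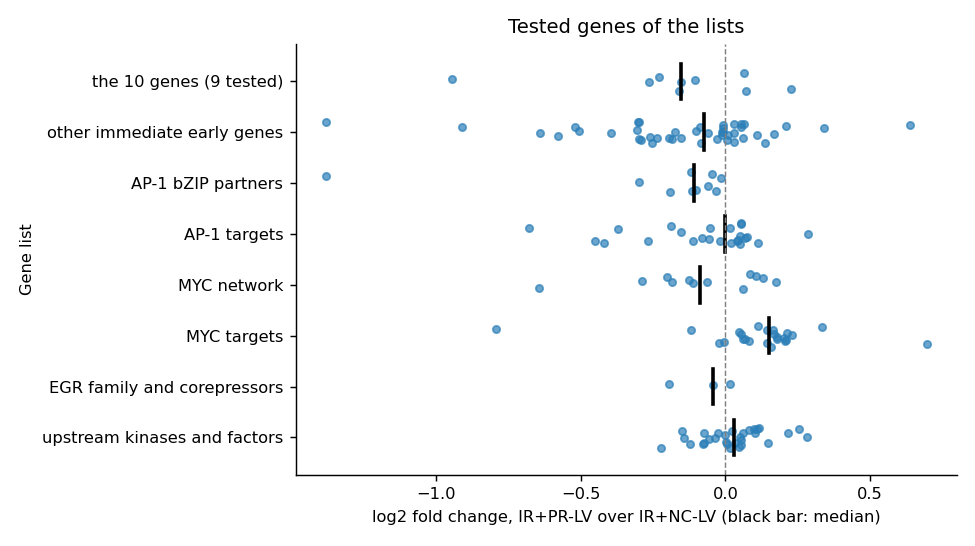
Log2 fold change of IR+PR-LV over IR+NC-LV for each tested gene (points) of the 10 genes and the 7 lists, with a black bar at the median; vertical scatter within a row has no meaning. The medians run from -0.15 for the 9 tested members to 0.15 for the targets of MYC, and ATF3, at -1.38, is the lowest point in both lists that hold it.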

How the data were processed

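RNA with poly(A) tails from 6 libraries (3 IR+NC-LV, 3 IR+PR-LV, grouped by the sample titles) was sequenced as paired reads. Per the labels, the submitters' processing notes name CASAVA, featureCounts 2.0.1, DESeq2 1.16.1 and the build hg38. The aligner and the strand setting are not given in the sources used here. The authors deposited unnormalized counts of reads for each gene, and TPM values that equal the count divided by exon length, scaled to 1 sum in every library. A deposited FPKM column was not used.

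Counts were tested with edgeR 4.0.16 in R 4.3.3: filterByExpr (minimum count 10, minimum total 15), TMM factors between 0.981 and 1.04, glmQLFit and glmQLFTest without covariates, and Benjamini-Hochberg adjustment over 15340 genes. Where a gene had several copies, lists used the one with most counts. Standard errors (SE) were derived from the fold change and its F statistic. Shares were compared by 2-sided exact permutation tests. Total counts of 13407074 to 28540041 make 3 counts, the limit that a count of 0 allows, equal to 0.105 to 0.224 CPM. Without molecular identifiers, reads are not independent molecules, and limits and intervals cover counting error only.

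The members and lists were chosen with earlier results of these data known. The rule for naming covered the 10 members, list genes past the threshold or else the 2 largest changes at a mean of at least 1 CPM, and the 5 genes nearest to FOS and to EGR1; other names are marked in the text. Alternatives were DESeq2 1.42.0, upper-quartile and RLE normalization, other filters, a replicate block, summed copies and leaving out each library. In simulated counts, edgeR found 179 of 200 genes with a log2 change of 1 among 15204 tested, and called 10 unchanged genes. Every simulated gene had the same coefficient of variation between libraries, 0.106. Real genes differ in their spread, so the share found does not give the power for the real genes. Untranslated regions came from GENCODE 29, using the basic transcript with the longest coding sequence, and promoters from RefSeq (GRCh38.p14).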

Additional observations from a re-analysis of the deposited data

How the results depend on the processing

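The number of members past the threshold was 0 in edgeR under every normalization, with copies summed, with at least 10 counts in every library, with the replicate block and in the 6 fits that each left out 1 library, and it was 1 (EGR1) with DESeq2 and 1 without the filter on low counts. Over all genes, 10 passed (3 higher, 7 lower). DESeq2 called 174, or 1.13% (58 higher, 116 lower). EdgeR without the filter called 342, or 1.19% of the genes it tested (135 higher, 207 lower). Leaving out 1 library gave 1 to 28 (1 to 7 higher, 0 to 22 lower). Of the other immediate early genes 7 passed with DESeq2 and 7 without the filter, and 0 to 2 with 1 library left out. For the AP-1 partners that range was 0 to 1. Without the filter 1 target of AP-1 and 2 targets of MYC passed, and with DESeq2 1 target of MYC. With the replicate number as a block, 3 genes passed (1 higher, 2 lower) and EGR1 had a log2 fold change of -0.94 with an adjusted p of 0.241 from edgeR. Same-numbered libraries of the 2 groups had correlations of -0.0088, 0.0514 and 0.0706 between their deviations over genes, and not every library correlated best with its own number. These values cannot settle whether same-numbered libraries were handled together. With 1 library left out at a time, the median of the members ranged from -0.20 to -0.07 and the number of members without overlap from 4 to 6. Groups of 2 against 3 libraries separate more easily, so this number cannot be set beside the 17.0% of all tested genes found with all 6 libraries. The log2 fold change of FOSL1 was -0.012 without IR+NC-LV replicate 3, its lowest value, and at most 0.12. The difference in family share ranged from -1.05 to 1.47 percentage points for FOSL1 and from -0.52 to 1.38 for FOSL2. The causes were not tested. A library held 2 to 5 counts of EGR3, 67 to 111 of FOS and 62 to 133 of EGR1, the lowest totals of the 10 genes, which limits their precision.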
